A study of Glycine max with 4 samples.

Results

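The *ASMT* loci of soybean are Glyma06g44010 and Glyma18g50470, the genes to which the study gave the name acetylserotonin methyltransferase, the last enzyme of melatonin synthesis. Both loci were taken by name, and each had 1 transcript model in the deposited table, so the members are 2 of 55787 transcript models and 2 of 46367 loci. Leaf RNA was sequenced from seedlings labelled as 3 weeks old and raised at 25 °C with 16 h of light and 8 h of dark. The paper's methods also give 3 weeks, whereas its results give 2 weeks. The 4 conditions were 100 µM melatonin (Mt), 1% NaCl with 100 µM melatonin (NaCl+Mt), 1% NaCl (NaCl) and water (H2O), with 1 library for each. The cultivar named in the methods is SuiNong 28, and the labels give no genotype. The number of plants in a library and the length of the treatment are not given in the sources used here. The melatonin stock was made in ethanol, and the methods do not say whether the solutions without melatonin held ethanol, so melatonin and its solvent cannot be told apart.

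Melatonin is made from tryptophan, which plants build through the shikimate pathway. Tryptophan is decarboxylated and hydroxylated to serotonin, serotonin is acetylated, and ASMT then transfers a methyl group from S-adenosylmethionine to give melatonin. In rice, ASMT is regarded as a limiting step. The symbol *ASMT* rests here on an automatic assignment to a KEGG orthologue by sequence similarity. Plant O-methyltransferases form a large family, and neither the activity of the encoded proteins nor the melatonin content of the leaves was measured in these data.

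Both transcript models were 1068 bases long, which is 356 codons. Since 95.8% of the lengths in the table were multiples of 3, these are coding lengths, without untranslated regions. The locus names place the genes on chromosomes 6 and 18. The files give no coordinates or sequences, and none of their locus names occurred in the RefSeq table at hand (assembly Glycine_max_v4.0). The study designed a pair of RT-PCR assays named *ASMT*-x and *ASMT*-y, whose primers are shown. The paper ran RT-PCR on RNA from independently grown and treated plants, also for melatonin synthesis genes. It states that the results matched its sequencing and reports *ASMT* as up-regulated by melatonin. Those RT-PCR values are not part of these data. Whether each primer pair is specific to a locus was not tested, since the files hold no locus sequences. The primer list does not say which assay belongs to which locus. Each primer is written 5′ to 3′ and the capitals mark the 5 bases at the 3′ end, from which the polymerase extends.
ASMT-x left: tgagaaagaatgggcACATC
ASMT-x right: tatagtaaacaagccGAGCC
ASMT-y left: aactcttcatggaagCCGGG
ASMT-y right: tgctccacactagttCTTCC
All 4 primers are 20 bases long. Their GC content is 45% for both *ASMT*-x primers, 55% for the left primer of *ASMT*-y and 50% for the right one.

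With 1 library per condition there is no replicate, so no difference given here could be compared with the variation between plants. Between 22908979 (H2O) and 36945028 (NaCl+Mt) reads were counted on the transcript models of a library. Expression is given as read counts and as RPKM, in which the reads are divided by the length of the transcript and by the mapped reads of the library. All 95% intervals are exact Poisson or Clopper-Pearson intervals of the counts. They cover counting error only, since there is no replicate. They may be too narrow even for that, because PCR copies of a molecule cannot be recognised here. A count of 0 allows up to 3 reads at one-sided 95% confidence, and this floor corresponded at 1068 bases to an RPKM of 0.0966 in Mt, 0.0599 in NaCl+Mt, 0.0775 in NaCl and 0.0961 in H2O. The 4 leaf markers *rbcS*, *LHCB4.3*, *PsbO* and *PsaF*, genes of carbon fixation and of the photosystems, had reads in every library and a summed RPKM of 7263 in Mt, 3622 in NaCl+Mt, 4677 in NaCl and 1354 in H2O. Their sum was thus also highest in Mt, as were *rbcS*, *PsbO* and *PsaF*. *LHCB4.3* was instead highest in NaCl, at 73.7, against 53.7 in NaCl+Mt, 45.5 in Mt and 8.87 in H2O. The sum in Mt was mostly *rbcS*, at 5644. On these same libraries, the paper reports *rbcS*, *PsbO* and *PsaF* as raised by melatonin, and *LHCB4.3* as raised in all treatments. That these markers were higher in the treated libraries than in H2O is thus not independent evidence. The part of these levels in the *ASMT* values was not tested.

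Nearly all reads of both *ASMT* loci came from the library treated with melatonin alone, and the other libraries had few or none. Glyma06g44010 had 786 reads in Mt, 10 in NaCl+Mt, 4 in NaCl and 0 in H2O. Glyma18g50470 had 159 reads in Mt, 2 in NaCl+Mt, 3 in NaCl and 0 in H2O. At both loci the RPKM interval in Mt lay far above those in the other libraries, and the RPKM intervals of NaCl+Mt, NaCl and H2O overlapped one another.

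In RPKM, Glyma06g44010 stood at 25.3 in Mt (95% interval 23.6 to 27.1), which was higher than 88.5% of all transcript models in that library. Glyma18g50470 stood at 5.12 in Mt (4.35 to 5.98), higher than 52.9% of them. In the other libraries the level computed from the counts of Glyma06g44010 was 0.200 in NaCl+Mt (0.0958 to 0.367) and 0.103 in NaCl (0.0282 to 0.265), and no read was counted in H2O. For Glyma18g50470 it was 0.0399 in NaCl+Mt (0.00484 to 0.144) and 0.0775 in NaCl (0.0160 to 0.227). The deposited RPKM was 0 for Glyma06g44010 in NaCl and for Glyma18g50470 in NaCl and NaCl+Mt, although reads had been counted there.

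**Figure D1:**
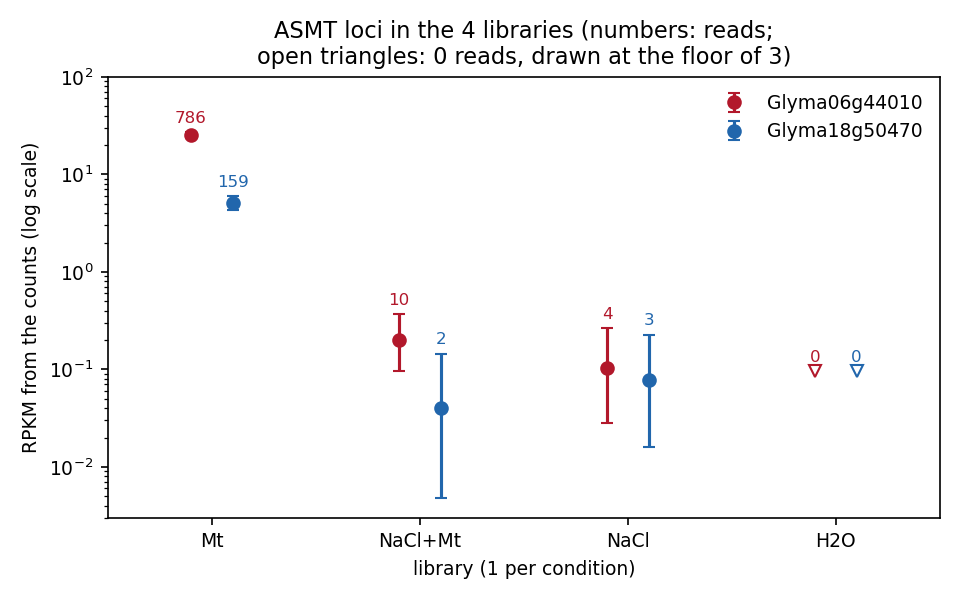
RPKM computed from the counts (log axis) of Glyma06g44010 (red) and Glyma18g50470 (blue) in each of the 4 libraries, with exact 95% Poisson intervals, the number of reads above each point, and open triangles at the floor of 3 reads where the count was 0. Both loci stand at 25.3 and 5.12 in Mt and at or under 0.200 in the other libraries.

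The comparison Mt:H2O asks what melatonin changed in the absence of salt. Against the floor of 3 reads in H2O, Glyma06g44010 was at least 263-fold higher in Mt and Glyma18g50470 at least 53.3-fold higher. The two-sided exact intervals of these ratios, which allow for counting error in both libraries, began at 214 and 42.8. A transcript was called when its level differed by a fold of 2 or more and its RPKM reached 1 in either library. Both loci were up-regulated by this rule, as were 21.2% of the 41781 transcripts that reached this RPKM, while 12.5% were down-regulated (33.7% in all). Both reached it through Mt alone, and with no read in H2O such a transcript cannot fail to be called. On the scale of log2(RPKM + 0.1), the values were 7.99 and 5.71, against a median of 0.05 over all transcripts tested. Of these, 62 had a higher value than Glyma06g44010 and 673 a higher one than Glyma18g50470. Because H2O had no read, the log2 values move with the pseudocount, to 4.72 for Glyma06g44010 and 2.61 for Glyma18g50470 at a pseudocount of 1.

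**Figure D2:**
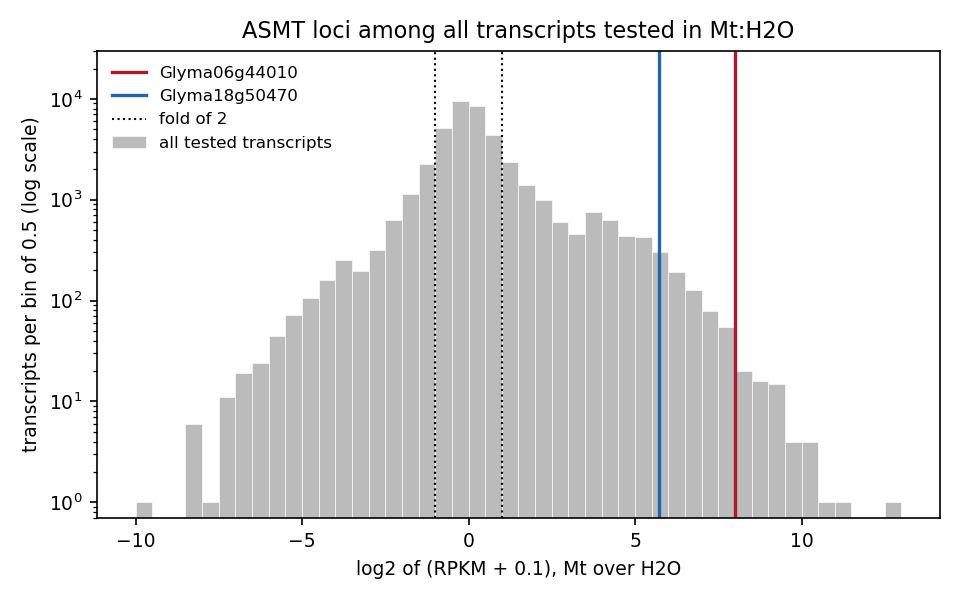
Number of transcripts (log axis) in bins of 0.5 of log2(RPKM + 0.1) in Mt over H2O, for the 41781 transcripts that passed the filter, with the fold of 2 as dotted lines. The values of Glyma06g44010 (red line, 7.99) and Glyma18g50470 (blue line, 5.71) lie in the upper tail of a distribution with a median of 0.05.

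An absence of reads in H2O with many reads in Mt was shared with few other transcripts. Of 8503 transcripts without a read in H2O, 103 (1.21%) had at least the 159 reads of Glyma18g50470 in Mt, and 10 had more than the 786 reads of Glyma06g44010. Of the 103, 79 also had at most 10 reads in NaCl and in NaCl+Mt, as both *ASMT* loci did. In the opposite direction, 5 transcripts without a read in Mt had at least 159 reads in H2O. These limits were taken from the *ASMT* counts themselves, so the numbers are a description.

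The difference between the log2 values of the loci in Mt:H2O, 2.28, is the ratio of their levels in Mt, since neither had a read in H2O. It is therefore no measure of a different response. Within Mt, Glyma06g44010 had 4.94 reads for each read of Glyma18g50470 (4.16 to 5.90), which was 83.2% of the 945 *ASMT* reads (80.6% to 85.5%). In NaCl+Mt it gave 10 of 12 reads, or 83.3% (51.6% to 97.9%), and in NaCl 4 of 7, or 57.1% (18.4% to 90.1%). The coding lengths are equal, so these shares compare levels per length. The intervals of the 3 shares overlap, and a difference in the share between libraries was not detectable at this depth. Whether the loci share stretches of sequence to which a read could map equally well was not tested, since the files hold no sequences. The methods describe uniquely mapped reads, and whether the deposited counts hold only these was not tested.

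The comparison NaCl:H2O asks what salt changed. Neither locus reached an RPKM of 1 in NaCl or H2O and neither was called, where 7.31% of the 38405 transcripts tested were up-regulated and 11.4% down-regulated (18.7% in all). Glyma06g44010 had 4 reads in NaCl and 0 in H2O, and the interval of this ratio began at 0.533, so that a difference was not detectable at this depth. Glyma18g50470 had 3 reads in NaCl and 0 in H2O, both at or under the floor, and no fold is given. The sum over both loci was 7 reads in NaCl and 0 in H2O, at least 1.88-fold higher in NaCl against the floor, and the interval of this ratio began at 1.16.

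The comparison NaCl+Mt:NaCl asks what melatonin changed when salt was present. Here 9.86% of 38389 transcripts were called up and 4.43% down (14.3% in all), and neither *ASMT* locus passed the filter. Glyma06g44010 had 10 reads in NaCl+Mt and 4 in NaCl, a ratio of 1.93 with an interval of 0.557 to 8.44 that includes 1. Glyma18g50470 had 2 reads in NaCl+Mt and 3 in NaCl, both within the floor. Over both loci, the 12 reads in NaCl+Mt and 7 in NaCl gave a ratio of 1.32 (0.481 to 3.97).

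The interval of the ratio of melatonin to its control thus ended at 8.44 with salt at Glyma06g44010, and began at 214 without salt. At Glyma18g50470 it ended at 4.50 with salt, and began at 42.8 without salt. On the log2 scale of RPKM + 0.1, the value of NaCl+Mt:NaCl less that of Mt:H2O was -6.40 for Glyma06g44010 and -5.71 for Glyma18g50470. These values are no measured sizes, since H2O had no read. At a pseudocount of 1 they were -4.45 and -2.61, and with RPKM computed from the counts -7.43 and -6.05. With 1 library in each condition the difference between the melatonin effects could not be tested against replicates.

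The comparison NaCl+Mt:Mt asks what salt changed when melatonin was present. Both loci were down-regulated, as were 19.4% of the 41573 transcripts tested, while 10.4% were up-regulated (29.8% in all). Glyma06g44010 had 10 reads in NaCl+Mt and 786 in Mt and was 127-fold lower in NaCl+Mt (68.5 to 265). Its log2 value was -6.40, with a counting error of 0.459. Glyma18g50470 had 2 reads in NaCl+Mt and 159 in Mt, and was 128-fold lower in NaCl+Mt (34.9 to 1067). The intervals of these ratios overlap, and a difference between the loci was not detectable at this depth. Both loci passed the filter through Mt alone, and this comparison shares the Mt library with Mt:H2O.

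In NaCl+Mt:H2O, neither locus passed the filter, where 4.92% of 38305 transcripts rose past the threshold and 3.62% fell past it (8.55% in all). Glyma06g44010 had 10 reads in NaCl+Mt and 0 in H2O and was at least 2.08-fold higher against the floor, and the interval of this ratio began at 1.40. Glyma18g50470 had 2 reads in NaCl+Mt and 0 in H2O. The order of the levels at Glyma06g44010 was thus Mt, NaCl+Mt, NaCl and H2O. In it, NaCl+Mt and NaCl, and NaCl and H2O, did not differ beyond counting error, whereas NaCl+Mt and H2O did. At Glyma18g50470 the last 3 libraries were all within the floor of 3 reads.

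The Mt library also stood apart in other genes. All 40 loci of the study's cell cycle list, which includes cyclins, spindle checkpoint genes and origin recognition genes of dividing cells, were up-regulated in Mt:H2O, with a median log2 of 4.84, beside the 21.2% of all transcripts tested. In H2O only 3 of the 40 reached an RPKM of 1, so that most passed the filter through Mt alone. Their summed RPKM was 293 in Mt, 26.1 in NaCl+Mt, 29.5 in NaCl and 14.2 in H2O, and no locus had 0 reads in Mt, against 4 in NaCl+Mt, 2 in NaCl and 5 in H2O. The study chose this list on the same libraries, so it is not independent evidence of its direction. In whole leaves a change in the share of a cell type and a change in the RNA per cell cannot be told apart, and the part of such a shift in the *ASMT* values was not tested.

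The steps before melatonin synthesis were described with 5 loci that the study lists for the shikimate pathway and tryptophan, again chosen by it on these libraries, with the most abundant transcript standing for each locus. Of the 5 loci, 3 passed the filter in Mt:H2O and all 3 were up-regulated, beside the 21.2% of all transcripts. The median log2 of the 5 was 2.60. No locus of the 5 had fewer reads in Mt than in H2O. The same 3 loci passed the filter in the other comparisons. The medians of this list are over all 5 loci, also those under the filter, whereas those of all transcripts are over the transcripts tested. In NaCl:H2O, 1 was up-regulated and 1 down-regulated (median 0.34), beside 7.31% and 11.4% of all transcripts tested (median -0.12). In NaCl+Mt:NaCl the counts were 1 up and 0 down (median 0.14), beside 9.86% and 4.43% (median 0.05). In NaCl+Mt:Mt they were 0 up and 2 down (median -2.52), beside 10.4% and 19.4% (median -0.12). This list median is the value of a *trpE* locus under the filter (Glyma18g03260, 0 reads in NaCl+Mt), so it depends on the pseudocount. The loci that passed had -2.97, -1.92 and -0.55. In NaCl+Mt:H2O they were 2 up and 0 down (median 0.67), beside 4.92% and 3.62% (median -0.06).

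In the shikimate pathway, *aroE* (shikimate dehydrogenase, Glyma20g37400) had 26 reads in Mt, 0 in NaCl+Mt, 2 in NaCl and 0 in H2O, and did not reach an RPKM of 1. It was at least 8.71-fold higher in Mt than in H2O against the floor, and the interval of this ratio began at 6.59. *aroK* (shikimate kinase, Glyma04g39700) had 332 reads in Mt, 138 in NaCl+Mt, 84 in NaCl and 53 in H2O. Its ratio was 6.29 in Mt:H2O (4.70 to 8.58) and 1.27 in NaCl+Mt:NaCl (0.961 to 1.69). Both genes were thus highest in Mt, as *ASMT* was, but *aroK* kept reads in every library.

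Anthranilate synthase (*trpE*) commits chorismate to tryptophan. Its locus Glyma18g03270 had 546 reads in Mt, 106 in NaCl+Mt, 74 in NaCl and 16 in H2O. It was 34.3-fold higher in Mt than in H2O (20.9 to 60.4) and 3.73-fold higher in NaCl than in H2O (2.15 to 6.87). The other *trpE* locus, Glyma18g03260, had 21 reads in Mt, 0 in NaCl+Mt, 2 in NaCl and 2 in H2O. Both loci were highest in Mt, and between NaCl+Mt and NaCl Glyma18g03270 did not differ beyond counting error (ratio 1.11, 0.815 to 1.51).

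The β chain of tryptophan synthase (*trpB*, Glyma11g00580), which makes tryptophan itself, had 408 reads in Mt, 446 in NaCl+Mt, 4 in NaCl and 123 in H2O. It was 38.1-fold lower in NaCl than in H2O (14.5 to 142) and 86.1-fold higher in NaCl+Mt than in NaCl (33.4 to 318). In Mt:H2O it was 3.33-fold higher (2.72 to 4.11). Its RPKM was highest in Mt as well, and the ratio of NaCl+Mt to Mt was 0.678 (0.592 to 0.778). For the sum of the *ASMT* loci this ratio was 0.00788 (0.00406 to 0.0138).

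**Figure D3:**
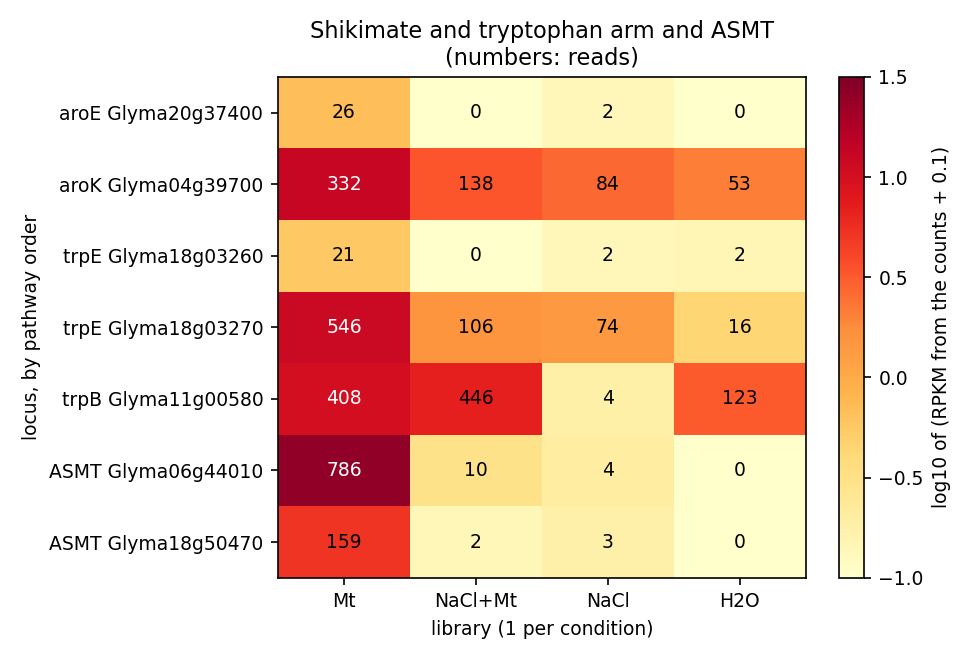
Reads (numbers) and log10 of RPKM from the counts + 0.1 (colour) in the 4 libraries for the shikimate and tryptophan loci, from *aroE* to *trpB*, and the *ASMT* loci in the 2 lowest rows. All 7 loci have their highest RPKM in Mt, and *trpB* has 446 reads in NaCl+Mt and 4 in NaCl.

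The other 21 loci of the study's amino acid list, in which it placed *ASMT*, did not move in one direction. The study chose this list on the same libraries too, so the share of its loci called is not independent evidence. In Mt:H2O all 21 passed the filter, and 13 were up-regulated and 7 down-regulated (median log2 2.13), beside 21.2% and 12.5% of all transcripts tested. In NaCl:H2O 18 passed it, with 3 up and 6 down (median -0.49), beside 7.31% and 11.4%. In NaCl+Mt:NaCl 16 passed it, with 7 up and 2 down (median 0.06), beside 9.86% and 4.43%. In NaCl+Mt:Mt 19 passed it, with 5 up and 12 down (median -1.57), beside 10.4% and 19.4%. In NaCl+Mt:H2O 17 passed it, with 3 up and 2 down (median 0.00), beside 4.92% and 3.62%. The median in each comparison is over all 21 loci, also those that did not pass the filter. The 0.00 is the value of loci under the filter with a deposited RPKM of 0 in both libraries.

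On the scale of log2(RPKM + 0.1), the largest rise in Mt:H2O was that of a serine hydroxymethyltransferase locus (*SHMT*, Glyma09g33480), an enzyme that interconverts serine and glycine. It had 2885 reads in Mt, 6 in NaCl+Mt, 4 in NaCl and 0 in H2O, at least 966-fold higher in Mt than in H2O against the floor, with an interval that began at 785. The largest fall was that of *dapA* (Glyma03g02530) of lysine synthesis, with 2 reads in Mt and 58 in H2O. By the counts alone, *ALD1* (Glyma08g19250), named here after its values were seen, fell further, with 1 read in Mt and 50 in H2O. In NaCl:H2O, a spermidine synthase locus (*SPDS*, Glyma10g39440) rose most on this scale, with 53 reads in NaCl and 11 in H2O and a ratio of 3.89 (2.01 to 8.26). Its deposited RPKM in H2O was 0 in spite of these reads, so that its log2 of 3.96 overstates this ratio, and by the counts *P5CS2* (Glyma03g12240) rose slightly more, with 85 reads in NaCl and 17 in H2O (ratio 4.04, 2.38 to 7.25). The branched-chain aminotransferase *BcaT* (Glyma07g30500) fell most in NaCl:H2O, with 2 reads in NaCl and 234 in H2O, and rose most in NaCl+Mt:NaCl, with 322 reads in NaCl+Mt. Among called loci, this *P5CS2* locus, of proline synthesis, fell most in NaCl+Mt:NaCl, with 17 reads in NaCl+Mt and 85 in NaCl.

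**Figure D4:**
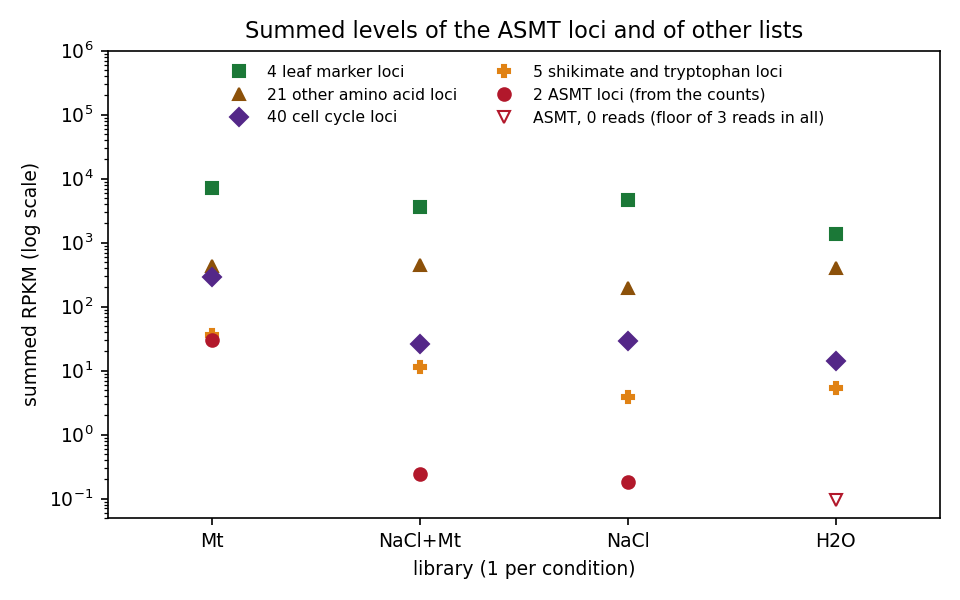
Summed RPKM (log axis) in the 4 libraries of the *ASMT* loci, computed from the counts, and of the shikimate and tryptophan, other amino acid, cell cycle and leaf marker lists, as deposited. The open triangle is the floor of 3 reads for the *ASMT* sum in H2O, and the cell cycle sum was 293 in Mt and 14.2 in H2O.

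The transcripts with the profile most like that of each *ASMT* locus were found by the Euclidean distance between log2(RPKM + 0.1) profiles over the 4 libraries, each less its own mean, among transcripts whose mean RPKM reached 1. For Glyma06g44010 the nearest were Glyma11g34040.1 (distance 0.154), Glyma19g29920.1 (0.187) and Glyma01g41820.1 (0.299), which had 528, 1184 and 708 reads in Mt and at most 19 in any other library. For Glyma18g50470 they were Glyma05g02360.1 (0.00600), Glyma18g06450.1 (0.00764) and Glyma14g35110.1 (0.00841), with 124, 258 and 122 reads in Mt and at most 7 elsewhere. The second set was close because RPKM was listed at 0 in the other 3 libraries. Within a distance of 1 lay 22 transcripts for Glyma06g44010 and 221 for Glyma18g50470, so the named ones are few of many. The *ASMT* loci lay at a distance of 1.996 from each other, and Glyma18g50470 took place 297 among the 39145 transcripts ranked by their distance to Glyma06g44010. In the ranking by distance to Glyma18g50470, Glyma06g44010 took place 701. The sources used here give these 6 transcripts no name.

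The loci numbered next to *ASMT* in the table were mostly low. Of the 3 loci on each side of Glyma06g44010, 2 passed the filter in Mt:H2O and 1 was up-regulated, beside 33.7% of all transcripts called in either direction. This was Glyma06g43940, with 59 reads in Mt, 10 in NaCl+Mt, 47 in NaCl and 0 in H2O. Its RPKM was 1.88 in Mt and 1.20 in NaCl. Of the 3 loci on each side of Glyma18g50470, 2 passed the filter and 0 were called in either direction in this comparison. The next locus, Glyma18g50490, had 9 reads in Mt, 3 in NaCl+Mt, 2 in NaCl and 0 in H2O, and the one before, Glyma18g50460, had 1037 reads in Mt and 1269 in H2O.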

How the data were processed

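The authors trimmed adaptors, discarded reads of low quality and aligned the rest to the genome with BWA (version 0.7.4 per the submitters' processing notes). For each transcript model they deposited a read count and an RPKM value in the 4 libraries. The genome build and the use of strand are not given in the sources used here. The deposited RPKM were the counts over coding length and 1 constant per library, except for 4628 to 5430 transcripts in each library that had reads and an RPKM of 0. RPKM were therefore also recomputed from the counts.

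Folds were taken on log2(RPKM + 0.1) and called at 2-fold or more where either library reached an RPKM of 1. No test between conditions was made, with 1 library each. Ratios of counts have exact conditional intervals, and the floor was 3 counts. Alternatives were pseudocounts of 0.01 and 1, folds of at least 4, no filter or a filter of RPKM 5, 1 transcript per locus or RPKM summed over transcripts, recomputed RPKM, and scaling by median of ratios or by edgeR's TMM factors. The calls and intervals were tested on simulated data. Python 3.11.15, numpy 2.4.6, pandas 2.3.3, scipy 1.17.1, matplotlib 3.10.9, R 4.3.3 and edgeR 4.0.16 were used. The loci and lists were chosen with earlier results of these data known. Named were the *ASMT* transcripts, the shikimate and tryptophan loci, the other amino acid loci with the largest rise and fall in 3 comparisons, the 3 nearest profiles and the 3 neighbours on each side. The rule also provided for other melatonin enzymes, but no locus matched the reference table.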

Additional observations from a re-analysis of the deposited data

Results flagged for a closer look

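Some loci named above went in opposite directions under the same treatment in the absence and presence of the other, with each ratio's counting interval leaving out 1. With 1 library in each condition, these differences were not tested against replicates. Values are log2 of RPKM computed from the counts + 0.1, and each difference is the value with the other treatment less the value without it. The standard errors are those of the log2 ratios of counts, without the added 0.1. *trpE* (Glyma18g03270) had 1.64 in NaCl:H2O and -2.97 in NaCl+Mt:Mt, a difference of -4.607 (standard error 0.426). *SPDS* (Glyma10g39440) had 1.71 and -3.96 in these comparisons, a difference of -5.673 (standard error 0.519). *BcaT* (Glyma07g30500) had -2.83 for Mt:H2O and 5.78 for NaCl+Mt:NaCl, and -6.00 in NaCl:H2O and 2.61 in NaCl+Mt:Mt. Both pairs differ by 8.608 (standard error 1.06), since they are the same contrast of the 4 libraries. *P5CS2* (Glyma03g12240) had 1.86 for Mt:H2O and -2.12 for NaCl+Mt:NaCl, and 1.67 in NaCl:H2O and -2.32 in NaCl+Mt:Mt, a difference of -3.987 for each pair (standard error 0.544). Of the leaf markers, *rbcS* had 2.47 for Mt:H2O and -0.34 for NaCl+Mt:NaCl, a difference of -2.813, *PsbO* 2.07 and -0.60 (difference -2.679), *PsaF* 2.29 and -0.43 (difference -2.721) and *LHCB4.3* 2.35 and -0.46 (difference -2.803). The first 3 also had opposite signs in NaCl:H2O and NaCl+Mt:Mt, at 1.79 and -1.02, 1.65 and -1.03, and 1.73 and -0.996. Neither *ASMT* locus met this criterion.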

How the results depend on the processing

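No *ASMT* call changed, at either locus or in their sum, with other pseudocounts, scalings, recomputed RPKM, a fold of at least 4 or a filter of RPKM 5. With few or no reads outside Mt, these settings, apart from the filter of RPKM 5, could hardly change a call, so this adds no support. Glyma18g50470 passed that filter narrowly, at 5.12 in Mt (95% interval 4.35 to 5.98). Without a filter, Glyma06g44010 and the sum would be called up in NaCl+Mt:NaCl and NaCl+Mt:H2O, at a log2 of 1.58 that rests on 10 reads in NaCl+Mt and on a deposited RPKM of 0 in NaCl and H2O. Both filters were tried on *ASMT* after seeing the data. The log2 difference between the loci in NaCl+Mt:Mt was -0.70 and moved to 2.09 at a pseudocount of 0.01, because Glyma18g50470 was listed at an RPKM of 0 in NaCl+Mt. Neither value is a measured difference. By the counts, the ratios were 0.00789 for Glyma06g44010 and 0.00780 for Glyma18g50470, and their log2 difference had a standard error of 1.12. At a fold of at least 4 the share of all transcripts called was 16.6% in Mt:H2O, 6.06% in NaCl:H2O, 4.86% in NaCl+Mt:NaCl, 13.7% in NaCl+Mt:Mt and 1.93% in NaCl+Mt:H2O, and at a pseudocount of 1 it was 5.11% in NaCl+Mt:H2O. The median of the shikimate and tryptophan loci in Mt:H2O was 5.06 at a pseudocount of 0.01 and 1.46 at 1, and -0.67 at 1 in NaCl+Mt:Mt. At a fold of at least 4, and at a pseudocount of 1, 0 of these loci were up-regulated in NaCl:H2O and 0 in NaCl+Mt:H2O, and at a fold of at least 4, 1 was down-regulated in NaCl+Mt:Mt. For the other amino acid loci, a fold of at least 4 left 4 down-regulated in Mt:H2O, 1 up-regulated in NaCl:H2O, 4 up-regulated and 1 down-regulated in NaCl+Mt:NaCl, and 3 up-regulated in NaCl+Mt:Mt, and a pseudocount of 1 left 1 up-regulated in NaCl:H2O and 0 down-regulated in NaCl+Mt:NaCl. By construction, a stricter fold gives fewer calls and a larger pseudocount shrinks the values of low transcripts. Scaling changed the median log2 of all transcripts by 0.12 (median of ratios) and 0.10 (TMM) in NaCl:H2O and by 0.15 (TMM) in NaCl+Mt:Mt, and by less than 0.1 otherwise. With RPKM recomputed from the counts, also tried after seeing the data, 0 of the 3 nearest profiles of either *ASMT* locus remained. The nearest were then Glyma08g22470.1, Glyma01g01310.2 and Glyma01g01310.1 for Glyma06g44010, and Glyma19g40020.1, Glyma08g14550.1 and Glyma19g37430.1 for Glyma18g50470, so these names rest on how low counts were listed. Glyma01g01310.2 and Glyma01g01310.1 are models of the same locus, whereas the ranking on deposited RPKM named each locus by its nearest model only. The 0 to 10 *ASMT* reads outside Mt limit every ratio among the other 3 libraries. No paired analysis was possible because each condition had 1 library.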
